A study of Homo sapiens with 12 samples.

Results

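The gemcitabine response of SUM159 cells carrying a control hairpin is described here over all 22154 genes of the authors' deposited table that compares 3 treated with 3 untreated samples. These are 6 of the 12 samples of the series, which fall into 4 groups of 3.

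SUM159 is an established triple-negative breast cancer line, grown here in a medium with fetal bovine serum, hydrocortisone and insulin. The groups used were shCTRL_GEM, control hairpin cells given 140 nM gemcitabine for 24 h, a dose the labels place at the IC30, and shCTRL_NT, control hairpin cells left untreated. Both groups were transfected with the same scramble hairpin. The other pair of groups, shE4F1_GEM and shE4F1_NT, carries a hairpin directed at the transcription factor gene E4F1 and is used here only for the test of whether the response depended on the hairpin. Whether the 3 samples of a group came from separate cultures is not in the labels, so p-values reflect the spread between these samples, which may be technical. A single line, dose and time were studied and every sample carries a hairpin, so unmodified cells, other doses and other times are not covered.

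Gemcitabine is a deoxycytidine analogue. Cells take it up through nucleoside transporters and phosphorylate it with deoxycytidine kinase; its diphosphate inhibits ribonucleotide reductase and its triphosphate is built into DNA, where it stops the replication fork. Stalled forks activate the ATR and CHEK1 kinases, which hold cells in S phase and delay mitosis, and DNA damage can activate NF-kB, the transcription factor family that drives many cytokine and chemokine genes.

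Each value below is the log2 change, gemcitabine against untreated, of the authors' deposited table with its standard error (SE), called the deposited change. A gene is said to have risen or fallen where the authors' DESeq2 gave it an adjusted p under 0.05 over these 3 against 3 samples. A normalized count is a read count divided by the library's size factor, and it is not corrected for gene length. Values and depth per sample are not given, because the columns of the count table could not be matched to the sample labels. Where a level in each group helps, the 2 group means that the deposited mean and change imply are given, as implied counts. They assume that the deposited mean was taken over these 6 samples, which its header does not state. In low genes the deposited changes appear moderated towards 0: genes with a mean under 10 reached at most 2.26. For such genes the implied counts lie too close together.

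Of 20002 genes with an adjusted p, 5599 changed, which is 28.0%. Of the tested genes 2908, or 14.5%, rose and 2691, or 13.5%, fell. These shares are the background given for the lists below, but they varied with expression level. Of tested genes with a mean of 5000 or more 5.06% rose and 37.6% fell. From a mean of 50 to 200 the shares were 25.0% and 9.76%. The median deposited change over the tested genes was -0.02. Large changes were mostly rises, 1342 by at least 1 (log2) against 396 falls. The split between rises and falls depends on the scaling. Centred on the median of the genes with a mean of 5000 or more, which moves every gene by 0.26, 5338 genes would be called higher and 1032 lower. Where that scaling turns a list's balance or moves its larger count by over 1.5 times, the counts under it stand in brackets beside the list. The 44 gene lists hold 1119 genes of the table, of which 1101 have an adjusted p; a further 33 members were not analysed here. Precision followed the level: the median SE was 0.435 where the mean lay under 10 and 0.152 where it reached 1000.

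**Figure D1:**
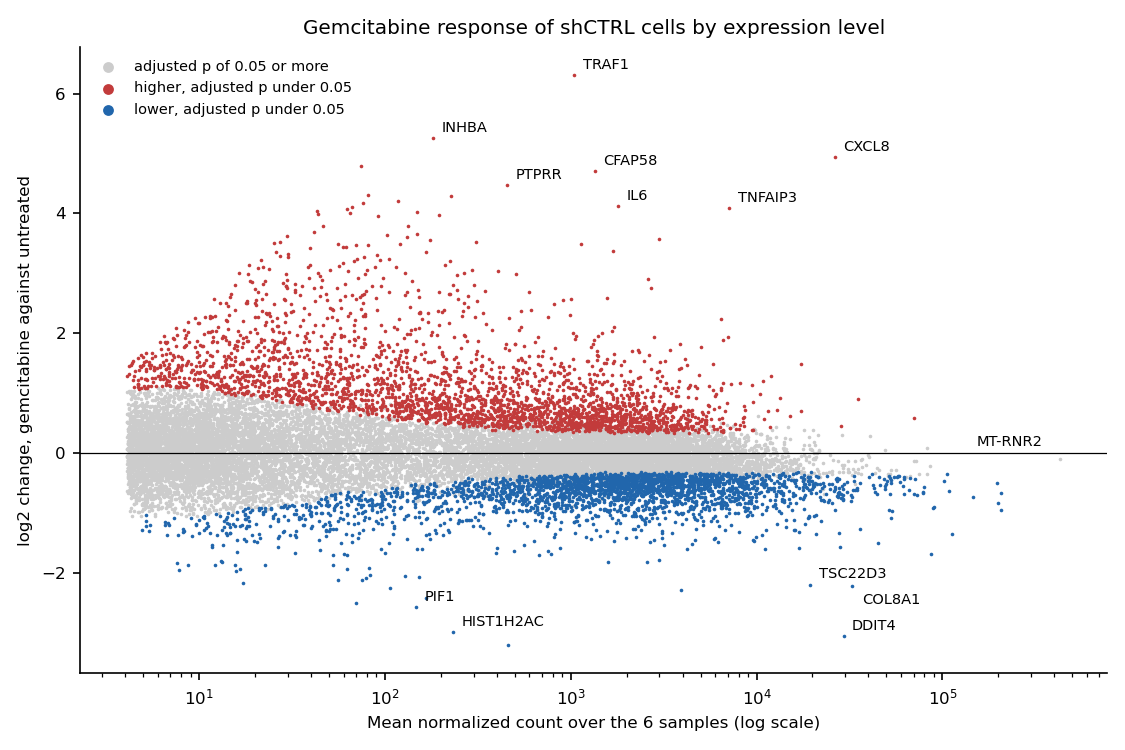
Deposited log2 change, gemcitabine against untreated, against the deposited mean normalized count (log scale), which the axis takes as one over the 6 samples. Each point is a gene with an adjusted p, coloured by call. Rises dominate among genes of low and middle level, from TRAF1 at 6.30 down, and falls among the most abundant genes.

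The 15 largest rises among genes with a mean of at least 50 were led by inflammatory genes. TRAF1, an adaptor of TNF receptors, rose most, with a deposited change of 6.30 ± 0.25 and implied counts of 26.1 untreated and 2062 under gemcitabine. It lies on chromosome 9 (120902393 to 120929173, minus strand, GRCh38). INHBA, the beta A subunit of activin A, followed at 5.26 ± 0.33, from 9.24 to 354. The neutrophil chemokine gene CXCL8 was at 4.94 ± 0.38, from 1667 to 51237. CXCL1, IL1B, IL6 and TNFAIP3 were in the same group of 15 and are described with their lists. Outside these families the deposited table held CFAP58, a cilia and flagella associated gene, at 4.70 ± 0.17, the phosphatase gene PTPRR, which acts on ERK and p38 kinases, at 4.47 ± 0.22, the small GTPase gene ARL14 at 4.07 ± 0.36 and TRIML2 at 4.01 ± 0.28. The remaining ones were the lincRNA genes LINC00973 at 4.79 ± 0.39 and AC140912.1 at 4.17 ± 0.37, and C8orf46 at 4.21 ± 0.31 and C8orf4 at 4.11 ± 0.39. These last 4 had means between 66.5 and 118, so their implied untreated counts were at most 12.1. ARL14 and CXCL1 were as low, with means of 62.3 and 81.2 and implied untreated counts of 7.01 and 7.83.

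The 15 largest falls were of other kinds. DDIT4, an inhibitor of mTORC1 that stress and glucocorticoids induce, fell from an implied 52486 to 6303, a deposited change of -3.06 ± 0.17. The antisense gene RP11-442H21.2 had a larger fall, -3.21 ± 0.20, but it lies wholly inside DDIT4 on the opposite strand, over 1066 bases of chromosome 10 (72274915 to 72275980, GRCh38), at 1.56% of the mean of DDIT4. The strand setting of the counting is not given in the sources used here, so reads of the pair cannot be told apart. TSC22D3, also called GILZ and a classic glucocorticoid target, was at -2.20 ± 0.15. The collagen gene COL8A1 fell from an implied 53661 to 11548, a deposited change of -2.22 ± 0.17. The histone genes HIST1H2AC and HIST3H2A, the helicase gene PIF1 and the mitochondrial tRNA genes MT-TA, MT-TQ, MT-TC and MT-TP stood in this group too. The gliomedin gene GLDN was at -2.51 ± 0.29, FAM65B at -2.28 ± 0.20, the pseudogene AC093616.4 at -2.26 ± 0.25 and the atypical chemokine receptor gene ACKR1 at -2.08 ± 0.29 in the deposited table.

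Most NF-kB genes rose. The list holds the subunits, the kinases that release them and the inhibitors that they induce as feedback; 18 of its 25 members rose and none fell, against 14.5% of all tested genes. The median deposited change was 0.94, against -0.02 over all tested genes. Among subunits NFKB2 was at 1.77 ± 0.20, RELB at 1.75 ± 0.24, REL at 1.61 ± 0.21 and NFKB1 at 0.69 ± 0.17, while RELA, the main activating subunit, was at 0.35 ± 0.13, also a rise. The kinase gene IKBKE was at 1.51 ± 0.21 and MAP3K14, the NIK kinase of the noncanonical arm, at 0.88 ± 0.15. The genes of the canonical kinase complex did not pass the test: CHUK was at 0.07 ± 0.14, IKBKB at -0.31 ± 0.14 and IKBKG at 0.19 ± 0.15. Feedback genes varied among themselves. TNFAIP3, which encodes the ubiquitin editor A20, rose from an implied 794 to 13452, a deposited change of 4.08 ± 0.19. The A20 partner TNIP3 was at 2.27 ± 0.24, NFKBIE at 1.62 ± 0.19 and the inhibitor of apoptosis gene BIRC3 at 1.49 ± 0.36. NFKBIA, which encodes the best known inhibitor, was an exception at -0.19 ± 0.16 (adjusted p = 0.394).

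Chemokines, the secreted attractants of leukocytes, rose in 13 of 15 tested cases with no fall, at a median of 1.44. With a mean of at least 50 the rises were 8, and from 2 other deposited tables, which give the response indirectly, also 8. A further 3 members had no adjusted p. Besides CXCL8, the neutrophil attractants CXCL1, CXCL2 and CXCL3 were at 4.30 ± 0.38, 1.91 ± 0.21 and 2.69 ± 0.25. The interferon-inducible T cell attractants CXCL10 and CXCL11 rose by 3.10 ± 0.33 and 2.69 ± 0.28, CCL20 by 1.26 ± 0.38 and CCL5 by 1.20 ± 0.29. CXCL14, at 1.21 ± 0.39, and CCL2, CCL4, CCL26 and CX3CL1 rose from low levels, the last 4 with means from 4.7 to 8. CCL28 at 0.49 ± 0.43 and CXCL16 at 0.14 ± 0.23 did not pass.

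Among cytokines 14 of 21 rose and none fell, with a median of 1.21. The alarm cytokines IL1B and IL1A were at 4.29 ± 0.27 and 2.75 ± 0.38. IL6, the acute phase cytokine, rose from an implied 196 to 3410.2, a deposited change of 4.12 ± 0.22. Colony-stimulating factors rose too, CSF2 by 2.98 ± 0.44 and CSF3 by 1.75 ± 0.32, and so did LIF at 1.55 ± 0.25. IL32, which induces other inflammatory cytokines, rose by 1.21 ± 0.14 at a mean of 10780.1. TNF itself rose by 2.22 ± 0.44 from a low level, a mean of 13.9. IL18 at 0.13 ± 0.15, CSF1 at 0.13 ± 0.16 and IL7 at -0.13 ± 0.18 did not pass the test.

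Receptors for these ligands did not follow as a group: 4 of 25 rose and 5 fell (8 and 4 centred on the most abundant genes). IL7R rose by 3.57 ± 0.24 and TNFRSF9, the costimulatory receptor CD137, by 3.49 ± 0.39. The TNF receptors moved in opposite directions, TNFRSF1B at 1.17 ± 0.20 and TNFRSF1A at -1.21 ± 0.14. The interleukin 33 receptor gene IL1RL1 fell, at -1.46 ± 0.22, and IL18R1 fell, at -0.99 ± 0.17.

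**Figure D2:**
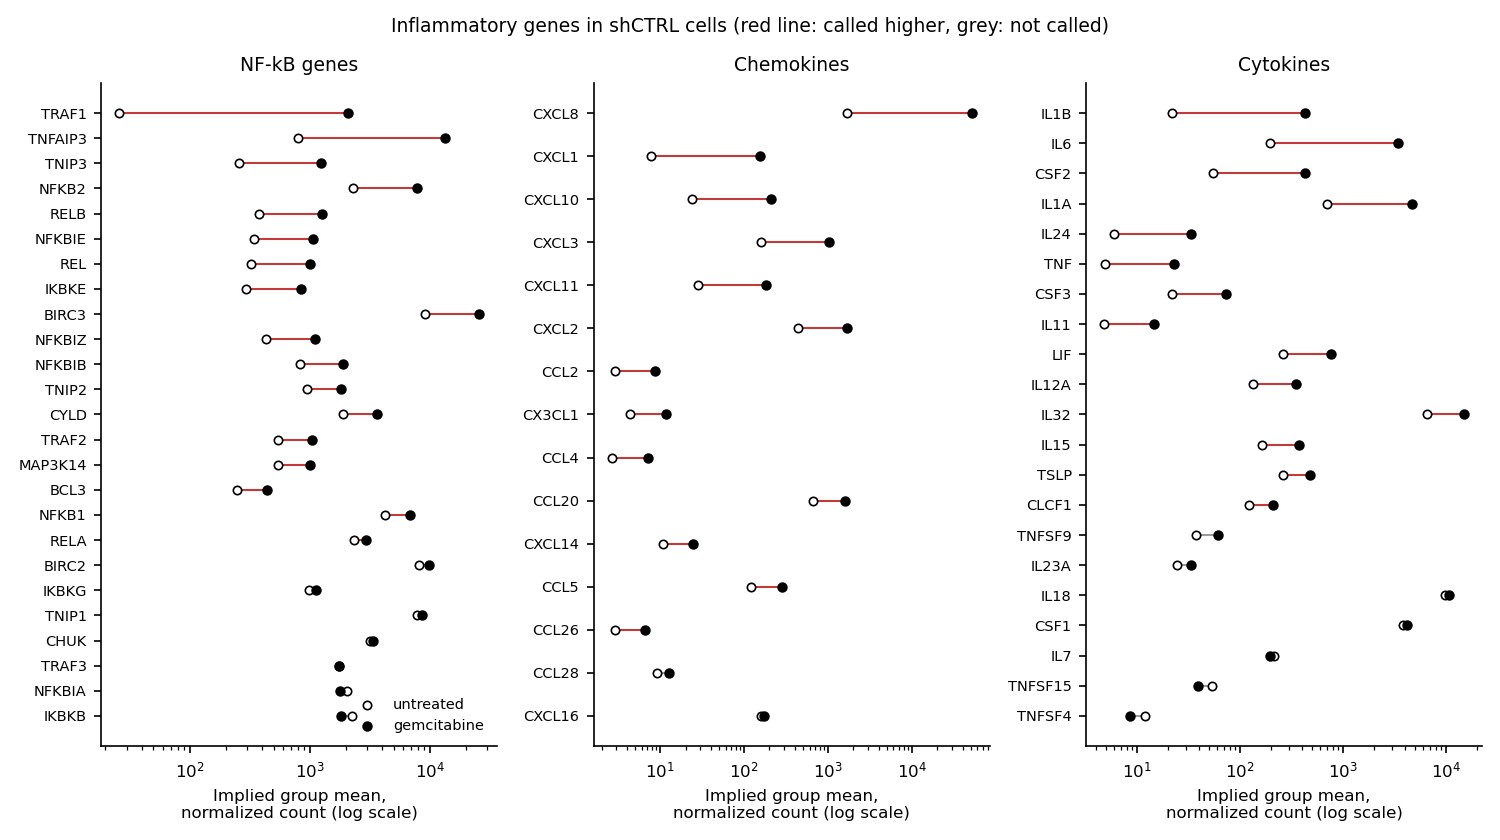
Implied group means (normalized counts, log scale) of untreated (open) and gemcitabine-treated (filled) shCTRL cells for NF-kB genes, chemokines and cytokines with an adjusted p, ordered by deposited change; red lines join genes called higher. TRAF1, CXCL8 and CXCL1 have the longest lines.

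Promoter sequences of some genes in these lists are shown because so many members rose together. Here and in the later windows only genes that hold a match were printed. The windows lie within the 250 bases before the start, are taken from RefSeq (GRCh38.p14) and are printed 5′ to 3′ on the gene's strand, with matches to the NF-kB consensus on either strand in capitals. The TNFAIP3 window is chr6:137867009-137867258 (plus strand), the IL6 window chr7:22726950-22727199 (plus), and the shorter windows are CXCL1 at chr4:73869284-73869354 (plus), CXCL2 at chr4:74099233-74099303 (minus) and CXCL3 at chr4:74038728-74038798 (minus).
TNFAIP3: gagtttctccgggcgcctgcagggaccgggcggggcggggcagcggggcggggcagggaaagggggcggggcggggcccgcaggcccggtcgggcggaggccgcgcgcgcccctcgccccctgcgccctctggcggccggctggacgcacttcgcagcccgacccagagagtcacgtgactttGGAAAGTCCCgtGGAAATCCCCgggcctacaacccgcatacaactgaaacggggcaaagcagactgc
IL6: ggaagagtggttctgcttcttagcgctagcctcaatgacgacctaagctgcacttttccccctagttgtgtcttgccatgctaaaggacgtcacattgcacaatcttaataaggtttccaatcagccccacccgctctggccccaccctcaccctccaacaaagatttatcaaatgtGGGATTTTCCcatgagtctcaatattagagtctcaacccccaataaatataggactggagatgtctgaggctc
CXCL1: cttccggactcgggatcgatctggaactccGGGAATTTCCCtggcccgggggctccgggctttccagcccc
CXCL2: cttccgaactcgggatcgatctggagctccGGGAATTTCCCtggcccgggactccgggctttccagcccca
CXCL3: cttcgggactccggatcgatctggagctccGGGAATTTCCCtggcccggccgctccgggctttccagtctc
TNFAIP3 holds 2 matches, which start at positions -67 and -55 from the gene's start, and IL6 holds 1 at -73. The same run of 11 bases stands at -79, -78 and -79 in CXCL1, CXCL2 and CXCL3, where it matches on both strands with 1 base of offset. Over windows of 300 bases, the consensus was found in 17 of 39 promoters of NF-kB genes, 7 of 16 of chemokines and 5 of 20 of cytokines. It was found in 13.0% of the 17528 promoters of tested genes and in 11.3% of all 35116. TRAF1, CXCL8, IL1B and CSF2 were not among the genes with a match, while NFKBIA, which was not called, was. Promoters were available for 22 of 25 NF-kB genes, 13 of 18 chemokines and 15 of 22 cytokines. The AP-1 motif TGANTCA was found in 3 of 16 chemokine and 5 of 20 cytokine promoters, against 5.69% of those of tested genes. A match describes letters and is no evidence of binding.

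Interferon-stimulated genes, which defend against viral nucleic acid, counted 20 rises and no fall among 45, at a median of 0.50. The transcription factor IRF1 was at 1.65 ± 0.19 and IRF7 at 0.90 ± 0.25. The cytosolic RNA sensors DDX58 (RIG-I) and IFIH1 (MDA5) rose by 1.33 ± 0.18 and 1.26 ± 0.23, and the DNA sensor MB21D1 (cGAS) by 0.61 ± 0.16. OAS3 was at 1.62 ± 0.19, IFIT3 at 1.46 ± 0.23 and MX1 at 0.75 ± 0.21. Members often used as markers of the pathway did not pass, among them IFIT1 at 0.01 ± 0.42, ISG15 at 0.61 ± 0.38 and IFI6 at -0.11 ± 0.19. The adaptor genes MAVS and TMEM173 (STING) were at -0.23 ± 0.14 and 0.20 ± 0.23. IFNL1, a type III interferon, rose by 2.26 ± 0.44 from a mean of 9.56, while IFNB1 was not analysed here.

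Genes of MHC class I presentation and immune ligands rose in 8 of 22 cases (16 centred on the most abundant genes) with no fall, at a median of 0.27. The stress ligands of the NKG2D receptor MICB and ULBP2 were at 1.17 ± 0.15 and 1.20 ± 0.23. CD274, which encodes the checkpoint ligand PD-L1, rose by 0.82 ± 0.23, and PDCD1LG2 (PD-L2) by 0.51 ± 0.20. The immunoproteasome gene PSMB9 was at 0.92 ± 0.16 and the peptide transporter gene TAP1 at 0.42 ± 0.14. The class I heavy chain genes HLA-B at 0.09 ± 0.18 and HLA-C at -0.19 ± 0.22 did not pass, and B2M was at 0.08 ± 0.14.

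Of AP-1 and immediate early genes 11 of 25 rose and 3 fell (17 and 2 centred on the most abundant genes). EGR2 was at 3.44 ± 0.36, ATF3 at 2.04 ± 0.26, JUN at 1.68 ± 0.19, EGR1 at 1.55 ± 0.42, FOS at 1.43 ± 0.34 and KLF6 at 0.92 ± 0.17. MYC fell, at -0.74 ± 0.13, as did JDP2, an AP-1 repressor, at -0.94 ± 0.13. In the ERK feedback list 10 of 24 rose and 7 fell (10 and 4 with that centring). Here PTPRR, the phosphatases DUSP8 at 1.23 ± 0.24 and DUSP10 at 1.10 ± 0.15 and the sphingosine kinase gene SPHK1 at 1.36 ± 0.24 rose. The ERK output genes ETV5 at -0.91 ± 0.18 and CCND1 at -0.63 ± 0.15, and the phosphatase gene DUSP1 at -1.08 ± 0.13, fell. DUSP6 at 0.04 ± 0.20 and SPRY2 at -0.05 ± 0.15, common readouts of ERK activity, did not pass.

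Among EGF family genes 3 rose and 3 fell of 14 (4 and 1 centred on the most abundant genes): the ligand genes HBEGF and NRG1 were at 2.58 ± 0.17 and 0.59 ± 0.19, and ERRFI1, a feedback inhibitor of the receptor, fell, at -1.61 ± 0.15. EGFR was at 0.01 ± 0.18. The activin and TGF-beta list had 4 rises and 9 falls among 30 (5 and 4 centred on the most abundant genes). The ligand genes INHBA and BMP2 rose, BMP2 by 2.63 ± 0.30, while TGFB1 at -0.26 ± 0.17 and TGFB2 at 0.19 ± 0.14 did not pass. Receptor and SMAD genes included falls: TGFBR2 was at -0.48 ± 0.13, BMPR1A at -0.75 ± 0.13 and SMAD4 at -0.50 ± 0.14, while SMAD3 rose by 0.75 ± 0.18.

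Matrix genes split. Of 40 fibrillar, basement membrane and integrin genes 9 rose and 14 fell (13 and 11 centred on the most abundant genes). COL3A1 rose by 3.52 ± 0.22, and the laminin chain LAMB3 by 2.91 ± 0.20, with its partner chain LAMA3 at 0.01 ± 0.15. The integrin chain ITGB8, which releases latent TGF-beta, was at 1.14 ± 0.23. The falls included COL8A1 as above, the thrombospondin gene THBS1 at -1.35 ± 0.18, LAMB1 at -1.10 ± 0.16, COL5A1 at -1.19 ± 0.22 and the integrin chain ITGA3 at -1.05 ± 0.15. FN1 at -0.14 ± 0.19 and SPARC at -0.04 ± 0.17 did not pass. Among proteases and their inhibitors 4 of 18 rose and 2 fell (7 and 1 with that centring); ADAMTS1 was at 2.00 ± 0.17, the urokinase gene PLAU at 1.54 ± 0.16 and the gelatinase gene MMP2 at -0.69 ± 0.20. YAP and TEAD targets gave 4 rises and 7 falls of 20 (5 and 3 with that centring). ANKRD1 rose by 3.37 ± 0.17 and NUAK2 by 2.28 ± 0.23, while CYR61 fell, at -0.68 ± 0.21, and CTGF was at -0.48 ± 0.20 (adjusted p = 0.0575).

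**Figure D3:**
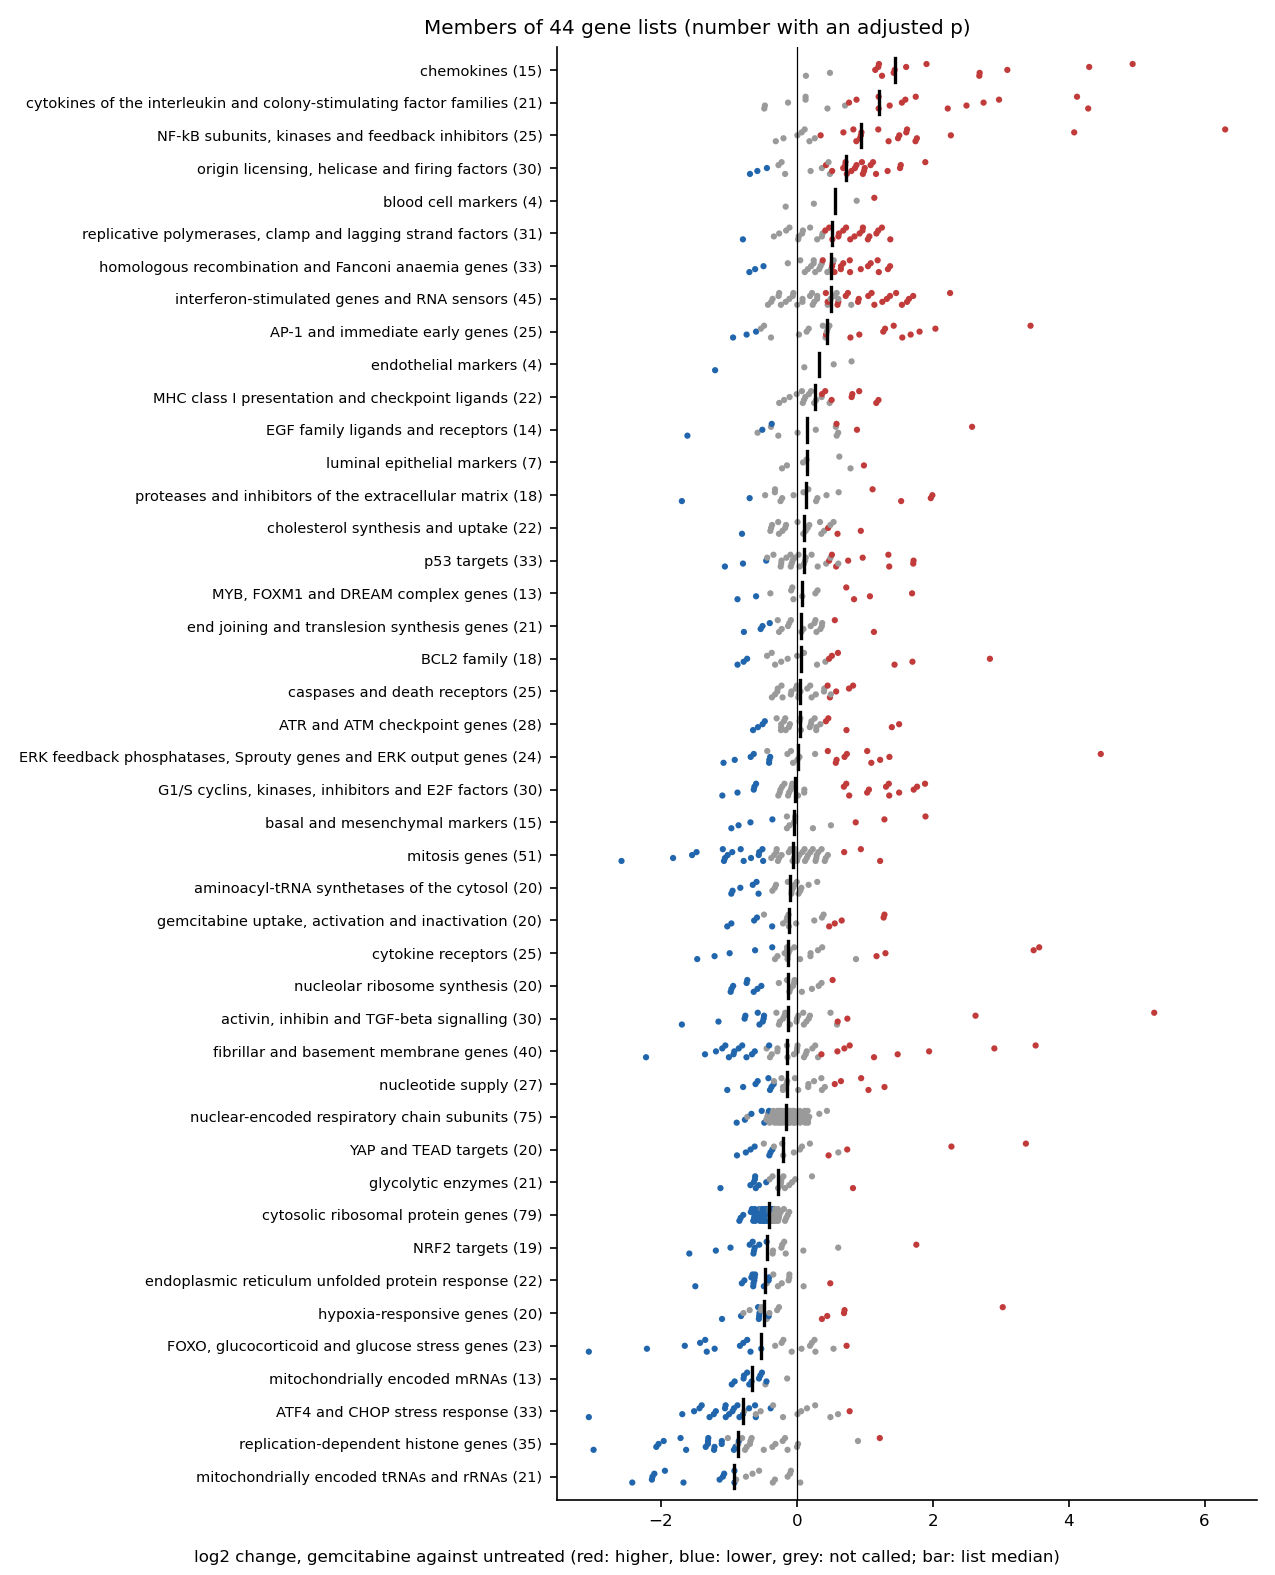
Deposited log2 change of each member of 44 gene lists with an adjusted p (red higher, blue lower, grey not called), ordered by the list median (black bar). Chemokines, cytokines and NF-kB genes have the highest medians; mitochondrial tRNA and rRNA, histone and ATF4 and CHOP genes the lowest.

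Many genes of the G1/S transition and of replication rose, and a subset of mitosis genes fell. In bulk RNA a change in the share of cells in a cell cycle phase and a change in RNA per cell cannot be told apart. Of 30 G1/S regulators 12 rose and 5 fell. Cyclin E, which with CDK2 starts S phase, rose in both forms, CCNE2 by 1.89 ± 0.26 and CCNE1 by 1.06 ± 0.22, and CDK2 by 0.77 ± 0.16. The phosphatase gene CDC25A, an activator of CDK2, was at 1.51 ± 0.17. Among E2F factors the activators E2F1 and E2F2 rose by 1.31 ± 0.14 and 1.77 ± 0.19 and the late repressors E2F7 and E2F8 by 1.36 ± 0.20 and 1.72 ± 0.21, while E2F3 at -0.07 ± 0.14 and E2F4 at -0.06 ± 0.14 did not pass and E2F5 fell, at -0.87 ± 0.17. CDKN1A, the p21 inhibitor, rose by 1.36 ± 0.17, and CDKN1B, the p27 inhibitor, fell, at -0.62 ± 0.15. Cyclin A2, CCNA2, which acts from S phase into G2, fell, at -1.09 ± 0.20.

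Origin licensing and firing factors load and start the MCM helicase. Of 30 such genes 20 rose and 3 fell, with a median of 0.73. The loader CDC6 moved most, at 1.89 ± 0.14, from an implied 2790.0 to 10355. The helicase genes MCM4, MCM2, MCM5, MCM7 and MCM3 rose by 1.17 ± 0.21, 1.12 ± 0.17, 1.00 ± 0.18, 0.99 ± 0.18 and 0.71 ± 0.20, while MCM6 was at 0.20 ± 0.19 and did not pass. MCM10 was at 1.53 ± 0.19 and the GINS member GINS4 at 1.52 ± 0.19. The origin recognition subunits split: ORC1 and ORC6 rose by 1.34 ± 0.23 and 0.97 ± 0.16, and ORC2 and ORC4 fell, at -0.44 ± 0.15 and -0.69 ± 0.14. DBF4, the regulatory subunit of the firing kinase, fell, at -0.58 ± 0.16, whereas its kinase gene CDC7 rose, at 0.68 ± 0.17.

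Replicative polymerase, clamp and lagging strand genes counted 18 rises and 1 fall among 31, at a median of 0.52. FEN1 and LIG1, which finish Okazaki fragments, were at 1.25 ± 0.25 and 1.05 ± 0.17. POLA1, POLE and POLD3, of the 3 replicative polymerases, were at 0.69 ± 0.20, 0.79 ± 0.14 and 1.20 ± 0.18. RPA2, which coats single-stranded DNA, rose by 1.17 ± 0.15, while RPA1 at -0.26 ± 0.17 and RPA3 at 0.30 ± 0.18 did not pass. The clamp gene PCNA was at 0.38 ± 0.23 (adjusted p = 0.234). TOP2A, a topoisomerase gene of G2 and mitosis, was the member that fell, at -0.79 ± 0.20.

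Windows of E2F-controlled genes are shown with the E2F words TTTCCCGC, TTTCGCGC, TTTGCCGC and TTTGGCGC in capitals, on either strand. Windows of PLK1 and PIF1, members of the mitosis gene list, are shown with TTTGAA, the cell cycle homology region word. E2F1 is at chr20:33686386-33686635 (minus), CDC6 at chr17:40287856-40287908 (plus), MCM2 at chr3:127598383-127598440 (plus), LIG1 at chr19:48170421-48170488 (minus), PLK1 at chr16:23678639-23678888 (plus) and PIF1 at chr15:64825632-64825697 (minus), from RefSeq, GRCh38.p14.
E2F1: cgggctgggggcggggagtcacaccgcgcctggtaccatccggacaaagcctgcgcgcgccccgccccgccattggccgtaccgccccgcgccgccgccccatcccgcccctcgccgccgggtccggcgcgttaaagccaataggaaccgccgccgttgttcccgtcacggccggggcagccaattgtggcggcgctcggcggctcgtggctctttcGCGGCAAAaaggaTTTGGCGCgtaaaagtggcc
CDC6: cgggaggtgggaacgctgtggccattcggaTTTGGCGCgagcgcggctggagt
MCM2: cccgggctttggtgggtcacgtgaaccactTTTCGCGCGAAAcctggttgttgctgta
LIG1: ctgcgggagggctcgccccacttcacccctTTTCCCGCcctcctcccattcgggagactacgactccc
PLK1: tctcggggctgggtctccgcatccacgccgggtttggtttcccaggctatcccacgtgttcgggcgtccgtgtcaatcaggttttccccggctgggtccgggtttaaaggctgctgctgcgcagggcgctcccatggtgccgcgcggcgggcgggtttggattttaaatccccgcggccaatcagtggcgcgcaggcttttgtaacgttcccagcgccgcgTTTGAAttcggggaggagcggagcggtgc
PIF1: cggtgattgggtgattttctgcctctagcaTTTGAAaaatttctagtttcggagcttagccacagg
The E2F words start at -33 and -20 in E2F1, at 8 in CDC6, at 3 and 7 in MCM2, where they overlap, and at -114 in LIG1; TTTGAA starts at -29 in PLK1 and at -20 in PIF1. An E2F word was found in 14 of 34 promoters of licensing genes and 8 of 34 of polymerase genes, against 4 of 48 of mitosis genes and 4.75% of the promoters of tested genes. TTTGAA showed the reverse, with 33 of 48 promoters of mitosis genes, 1 of 34 of licensing genes, 3 of 34 of polymerase genes and 11.2% of those of tested genes. Among the mitosis genes with a promoter in the table, 9 of 15 that fell and 21 of 25 that were not called held the word, as did 1 of 3 that rose.

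Mitosis genes did not fall as a block: 16 of 51 fell, 3 rose and the median was -0.06 (11 falls and 12 rises, median 0.20, centred on the most abundant genes). PIF1, counted in this list although it encodes a DNA helicase that unwinds G-quadruplexes, was at -2.58 ± 0.26. The kinesin gene KIF20A was at -1.82 ± 0.26. The entry kinase PLK1 was at -1.47 ± 0.16 and cyclin B1, CCNB1, at -1.09 ± 0.19, while its kinase CDK1 was at 0.02 ± 0.21 and did not pass. The kinetochore genes CENPF and BUB1 fell, at -1.02 ± 0.21 and -1.05 ± 0.20, as did AURKA at -0.49 ± 0.18 and CDC20 at -0.50 ± 0.17. AURKB at 0.46 ± 0.21, BIRC5 at 0.04 ± 0.17, TPX2 at 0.28 ± 0.17 and TTK at 0.37 ± 0.19 did not pass. Separase, ESPL1, rose by 1.23 ± 0.16 and SGO1, the protector of centromeric cohesion, by 0.94 ± 0.18. FOXM1, the factor that drives late G2 genes, was at 0.08 ± 0.18, and MYBL2, its partner at these promoters, rose by 1.08 ± 0.15. CCNB1, PLK1, KIF20A, PIF1 and ESPL1 kept their calls under that centring, and AURKA and CDC20 did not.

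**Figure D4:**
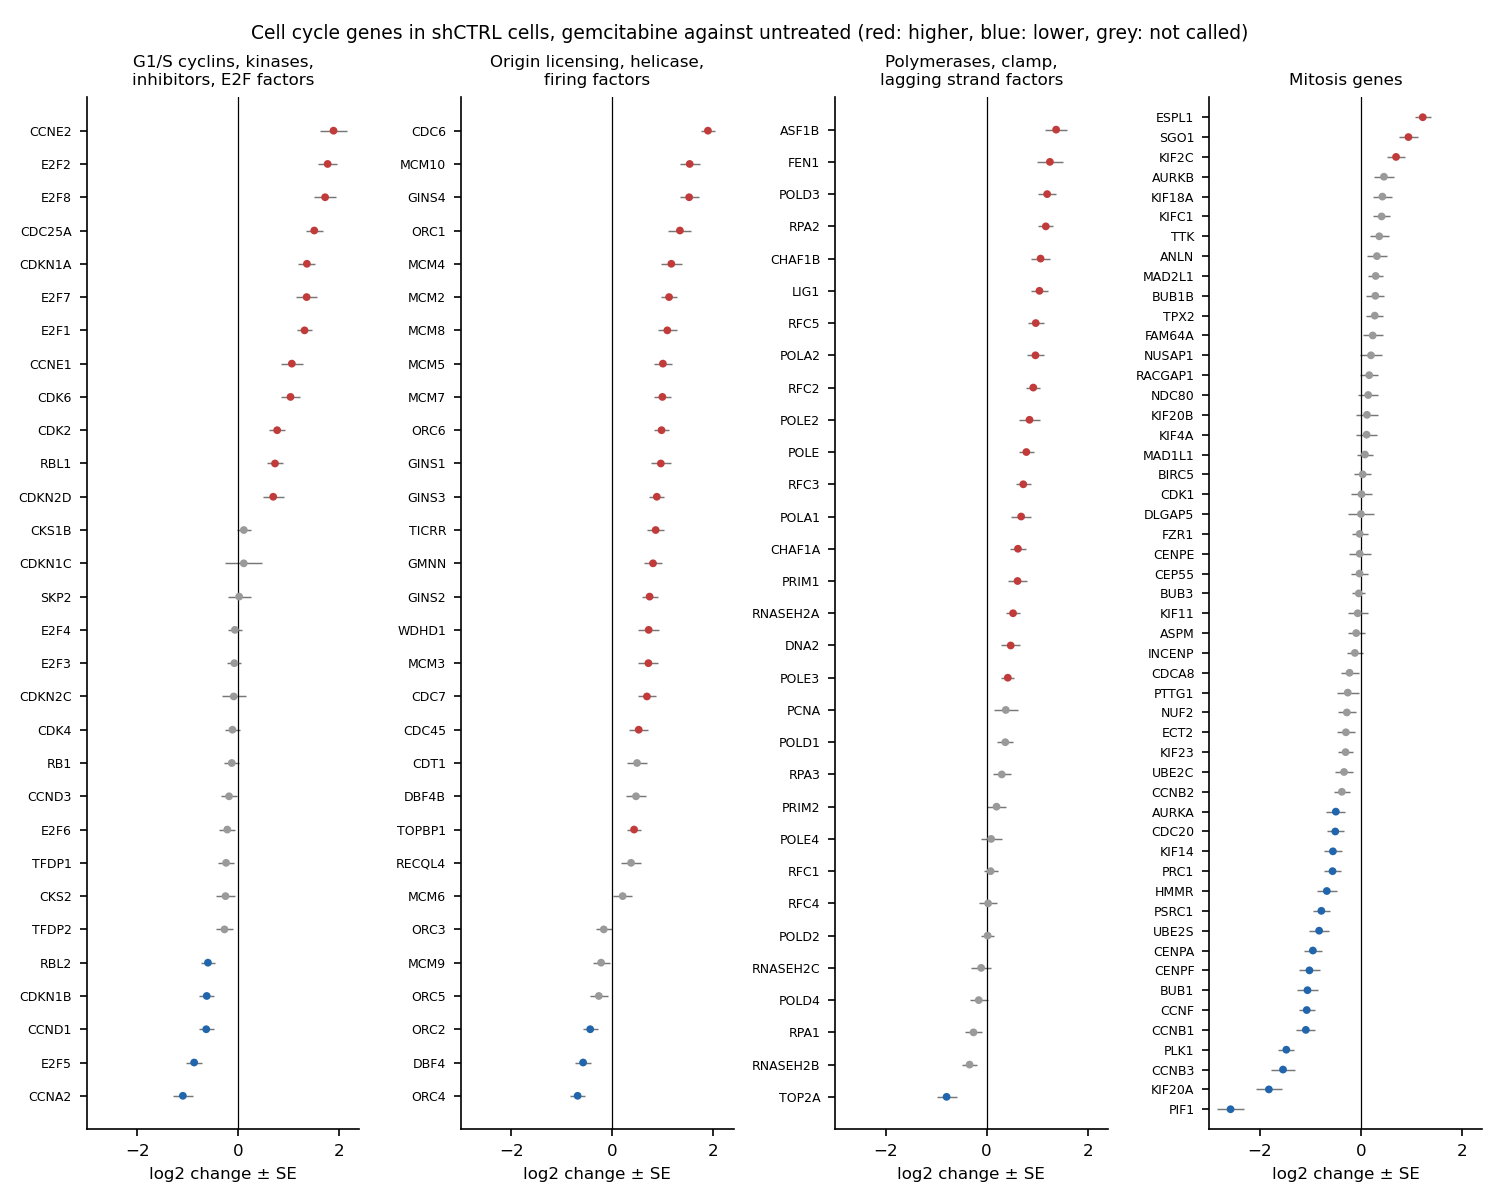
Deposited log2 change ± SE of every member with an adjusted p in 4 cell cycle lists, each sorted by change (red higher, blue lower, grey not called). Replication lists lie mostly to the right of 0, from CDC6 at 1.89 down. The mitosis list extends furthest to the left, to its member PIF1, a helicase gene, at -2.58.

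Many histone transcripts fell. Of 35 replication-dependent histone genes 17 fell and 1 rose, at a median of -0.86. The list includes the pseudogenes HIST1H1PS1 at 0.90 ± 0.43 and HIST1H3PS1 at -0.73 ± 0.44, neither of them called. HIST1H2AC was at -2.99 ± 0.24, HIST1H2BD at -2.03 ± 0.29 and the linker histone gene HIST1H1C at -0.92 ± 0.21. Most copies of these RNAs end in a stem loop without a poly(A) tail, the libraries were made with a kit for polyadenylated RNA, and 26 of the tested genes had a mean under 50. A change in total histone RNA and a change in its polyadenylated part cannot be told apart, and reads of near-identical copies may be split in unknown ways.

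Nucleotide supply genes were divided, with 5 rises and 8 falls of 27 (11 and 2 centred on the most abundant genes). The rises were those of deoxynucleotide synthesis: RRM2 and RRM1, the ribonucleotide reductase subunits and targets of the drug, at 1.29 ± 0.20 and 0.56 ± 0.21, thymidine kinase TK1 at 1.06 ± 0.20 and thymidylate synthase TYMS at 0.65 ± 0.22. The p53-induced subunit RRM2B was at -0.03 ± 0.14. The falls included enzymes of ribonucleotide synthesis, CTPS1 at -0.39 ± 0.16, GART at -0.42 ± 0.16 and IMPDH2 at -0.37 ± 0.14. Of the genes that handle gemcitabine, 5 of 20 rose and 5 fell (8 and 2 with that centring, 1 and 4 from the indirect tables). CDA, the deaminase that inactivates the drug, rose by 0.66 ± 0.19. The activating kinase DCK was at 0.40 ± 0.19 (adjusted p = 0.105) and the transporter SLC29A1 at 0.37 ± 0.17 (adjusted p = 0.0776). The nucleotidases NT5C2 and NT5E fell, at -0.63 ± 0.17 and -0.96 ± 0.16.

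Homologous recombination and Fanconi anaemia genes, which repair broken and crosslinked forks, counted 16 rises and 3 falls among 33 (26 and 1 centred on the most abundant genes), at a median of 0.51. BRIP1 was at 1.37 ± 0.16, EXO1 at 1.21 ± 0.17, BRCA2 at 1.19 ± 0.17 and BRCA1 at 0.78 ± 0.18. FANCD2 at 0.25 ± 0.19 and FANCI at 0.45 ± 0.18 did not pass, and FANCE and MUS81 fell, at -0.70 ± 0.15 and -0.61 ± 0.18. The checkpoint list had 5 rises and 4 falls of 28 (10 and 1 with that centring), at a median of 0.05. The fork mediator CLSPN rose by 1.40 ± 0.23 and its partner TIPIN by 0.73 ± 0.18, while the kinases ATR, CHEK1 and ATM were at 0.22 ± 0.14, 0.04 ± 0.17 and -0.23 ± 0.14. WEE1, which restrains mitotic entry, fell, at -0.57 ± 0.14. In end joining and translesion synthesis 2 of 21 rose and 4 fell (9 and 1 with the centring named above). POLQ was at 1.14 ± 0.16, and the Ku subunits XRCC5 and XRCC6 were at -0.78 ± 0.18 and -0.50 ± 0.18.

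The p53 target list gave 9 rises and 3 falls of 33 (14 and 2 centred on the most abundant genes). Besides CDKN1A, PLK2 was at 1.72 ± 0.17, the nuclease gene AEN at 1.71 ± 0.18 and BTG2 at 1.35 ± 0.22. Targets that report on p53 in many cells did not pass: MDM2 was at 0.31 ± 0.15, BAX at 0.11 ± 0.15, ZMAT3 at -0.24 ± 0.17 and TP53I3 at 0.03 ± 0.19. SESN1 and SESN2 fell, at -1.06 ± 0.24 and -0.79 ± 0.21. In the BCL2 family 6 of 18 rose and 3 fell. These counts were 3 and 3 with a mean of at least 50, and 1 and 2 from the indirect tables. The death-promoting BIK and HRK were at 2.84 ± 0.39 and 1.44 ± 0.39, from means of 28.1 and 20.4, and PMAIP1 (NOXA) was at 0.52 ± 0.21. The survival genes MCL1 and BCL2L1 fell, at -0.78 ± 0.15 and -0.73 ± 0.15. Caspase and death receptor genes rose in 5 of 25 cases with no fall (11 with that centring), CASP1 by 0.77 ± 0.19 and the receptor gene FAS by 0.58 ± 0.16. CASP8 at 0.00 ± 0.16 did not pass.

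Many genes of stress pathways fell. ATF4 and CHOP are the transcription factors of the integrated stress response and drive amino acid synthesis and transport. Of the 33 members of their list 21 fell and 1 rose, at a median of -0.79, against 13.5% falls over all tested genes. ATF4 itself was at -1.28 ± 0.15, from an implied 9588 to 3943. The gene of CHOP, DDIT3, was the member that rose, at 0.78 ± 0.21. Besides DDIT4, the glutathione-degrading enzyme CHAC1 was at -1.68 ± 0.25, the amino acid transporters SLC38A2 and SLC7A11 at -1.51 ± 0.16 and -1.19 ± 0.22, TRIB3 at -1.43 ± 0.25, the serine synthesis gene PSAT1 at -1.40 ± 0.20 and asparagine synthetase, ASNS, at -0.87 ± 0.22. PHGDH at -0.35 ± 0.16 and SLC3A2 at 0.07 ± 0.20 did not pass. Windows of ASNS (chr7:97872439-97872506, minus) and CHAC1 (chr15:40953232-40953299, plus), from RefSeq, GRCh38.p14, are shown with TGATGNAA, the C/EBP and ATF composite word, in capitals on either strand.
ASNS: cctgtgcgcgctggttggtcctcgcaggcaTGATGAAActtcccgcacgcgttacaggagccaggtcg
CHAC1: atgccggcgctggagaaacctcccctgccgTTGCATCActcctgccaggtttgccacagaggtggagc
The word was found in 8 of 42 promoters of the list, 1 of 27 of the unfolded protein response list and 2.27% of those of tested genes.

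The unfolded protein response, which protects the endoplasmic reticulum, counted 13 falls and 1 rise among 22 genes (7 and 1 centred on the most abundant genes, at a median of -0.20 against -0.46). HERPUD1 was at -1.49 ± 0.16, the chaperone gene HSPA5 (BiP) at -0.64 ± 0.15, PDIA4 at -0.81 ± 0.16 and the sensor ATF6 at -0.67 ± 0.16. The sensor gene EIF2AK3 (PERK) rose by 0.49 ± 0.14. Of 23 FOXO, glucocorticoid and glucose stress genes 12 fell and 1 rose (10 and 5 with that centring). The glucocorticoid targets FKBP5, ZBTB16 and KLF9 were at -1.35 ± 0.19, -1.65 ± 0.19 and -1.21 ± 0.16 beside TSC22D3 and DDIT4, in a medium that holds hydrocortisone. Their receptor gene NR3C1 was at -0.07 ± 0.17, PER1 at -0.32 ± 0.14 and SGK1 at 0.54 ± 0.22, none past the test. FOXO1 fell, at -1.42 ± 0.16, and the arrestin-domain gene ARRDC4 rose, at 0.73 ± 0.16, while TXNIP was at 0.28 ± 0.15.

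Of 19 NRF2 targets of the antioxidant response 10 fell and 1, OSGIN1 at 1.76 ± 0.21, rose. Thioredoxin reductase, TXNRD1, was at -1.58 ± 0.13, HMOX1 at -0.97 ± 0.20, the ferritin gene FTH1 at -0.69 ± 0.13 and GCLM at -0.64 ± 0.14. NQO1, the usual reporter of the pathway, was at -0.35 ± 0.16 and did not pass. Hypoxia-responsive genes gave 5 rises and 7 falls of 20 (5 and 2 centred on the most abundant genes, 1 and 6 from the indirect tables); the vasodilator peptide gene ADM rose by 3.03 ± 0.23 and BNIP3L fell, at -1.10 ± 0.17, with VEGFA at -0.53 ± 0.24 and CA9 at -0.78 ± 0.43.

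Glycolytic genes counted 8 falls and 1 rise among 21 (1 and 2 centred on the most abundant genes). HK1 was at -1.12 ± 0.16, LDHA at -0.68 ± 0.21 and GAPDH, often used as a reference gene, at -0.63 ± 0.17; the last 2 lost their calls with that centring. ENO2 rose by 0.83 ± 0.22. Of 22 cholesterol synthesis and uptake genes 3 rose and 1 fell (7 and 1 with that centring, 1 and 1 from the indirect tables). Among cytosolic aminoacyl-tRNA synthetases 6 of 20 fell and none rose (3 and 2 with that centring), EPRS and IARS by the most, at -0.96 ± 0.16 and -0.94 ± 0.17. Of 20 nucleolar genes of ribosome synthesis 8 fell and 1 rose (5 and 4), and the nucleolar proteins NPM1 and NCL were at -0.97 ± 0.14 and -0.96 ± 0.13. The glycolytic, synthetase and nucleolar lists hold abundant genes, with median means of 9255, 10912 and 7176. Falls made up 38.1%, 30% and 40% of them, against 37.6% of all tested genes with a mean of 5000 or more. Cytosolic ribosomal protein genes fell in 50 of 79 cases with no rise, within a narrow range from -0.84 to -0.11. Centred on the most abundant genes, of which they form a part, 6 fell, and 24 fell by the indirect tables.

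RNAs of the mitochondrial genome fell unevenly. The genome is read as long transcripts from a promoter on each strand, which are then cut into mRNAs, tRNAs and rRNAs. The mRNAs fell in 11 of 13 cases, at a median of -0.66 (6 falls, median -0.40, centred on the most abundant genes), with MT-ND4 at -0.96 ± 0.14 and MT-CYB at -0.91 ± 0.16; MT-ND1, next to the rRNAs, was at -0.14 ± 0.15 and did not pass. The rRNA genes MT-RNR1 and MT-RNR2, the latter with the highest mean of the table, 431299, were at 0.05 ± 0.17 and -0.10 ± 0.14. All 8 tRNAs read from the light-strand promoter fell, at a median of -2.02 and from -2.42 for MT-TA to -0.92 for MT-TE. Of 11 tested tRNAs read from the heavy-strand promoter 3 fell, at a median of -0.65 and from -1.13 for MT-TT to -0.08 for MT-TF. MT-ND6, the one mRNA of the light-strand transcript, was at -0.78 ± 0.23, within the range of the other mRNAs. The tRNAs had means from 9.24 to 258.5 and are mostly too short for such libraries of polyadenylated RNA. Since the strand setting of the counting is not given, reads of a tRNA and of the transcript on the opposite strand cannot be told apart. Among nuclear-encoded respiratory chain genes 6 of 75 fell and none rose (1 and 5 centred on the most abundant genes), COX5A by the most, at -0.88 ± 0.14. These falls made up 8% of the list, fewer than the 13.5% over all tested genes.

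**Figure D5:**
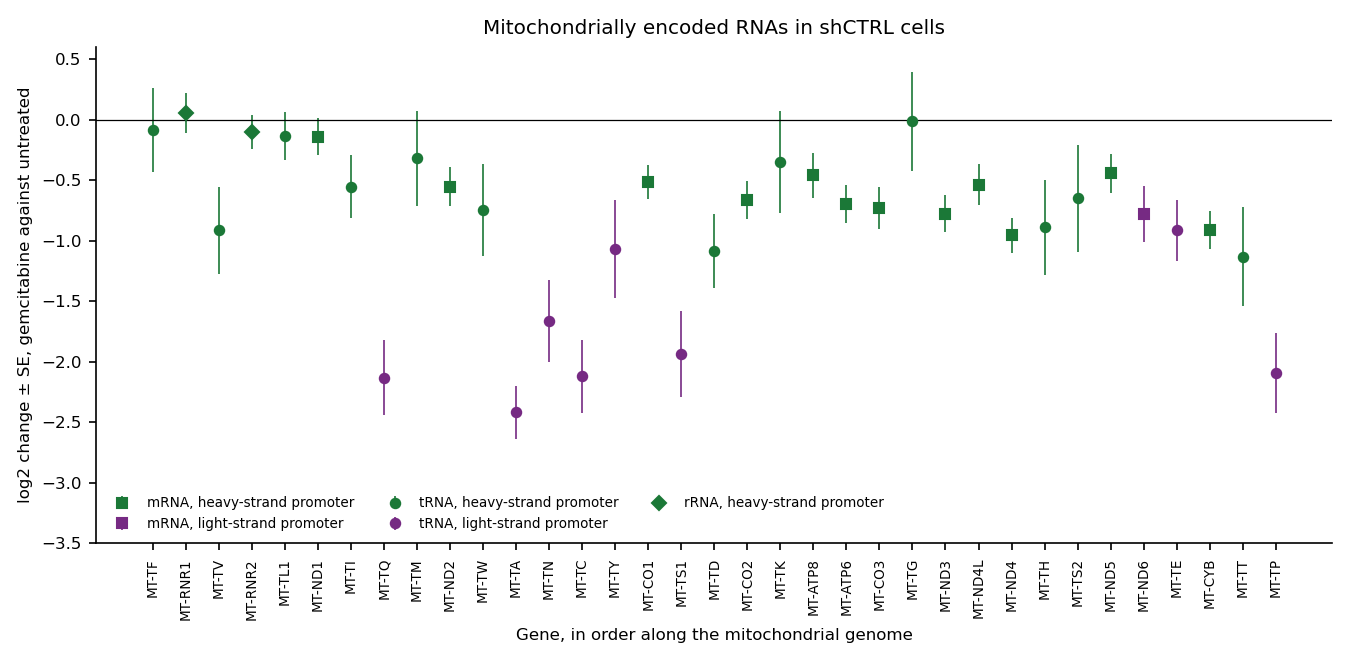
Deposited log2 change ± SE of mitochondrially encoded RNAs in gene order, by kind (square mRNA, circle tRNA, diamond rRNA) and by the promoter they are read from (green heavy strand, purple light strand). The rRNAs lie near 0, the heavy-strand mRNAs between -0.96 and -0.14, and 6 light-strand tRNAs below -1.5.

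The marker genes matched the label of the line in part. The mesenchymal markers VIM, CD44, AXL and CDH2 had means of 70720.4, 8887, 13658 and 5179.9. Of the luminal markers ESR1, CDH1 and ELF3 had means of 4.95, 9.23 and 13.2, but the keratin genes KRT8 and KRT18 were measured at 2748 and 2547 and GATA3 at 588. FOXA1, a luminal factor, rose by 0.99 ± 0.27 at a mean of 65.7. Of the basal keratins KRT5 and KRT17 had means of 464 and 21.5, and KRT17 rose by 1.89 ± 0.39. PGR, EPCAM and KRT19 were not analysed here. ERBB2 was measured at a mean of 2831 and fell, at -0.51 ± 0.16. Basal and mesenchymal markers gave 3 rises and 4 falls of 15 (5 and 3 with the centring); SNAI2 and ZEB2 rose by 1.29 ± 0.14 and 0.87 ± 0.16, and ZEB1 and VIM fell, at -0.86 ± 0.17 and -0.68 ± 0.14. Of 4 blood cell markers PTPRC (CD45) rose by 1.14 ± 0.24 at a mean of 144, and CD14, LYZ and FCER1G stood at means of 11.4, 26.9 and 4.45 and did not pass. CD3E, HBB and CD68 were not analysed here, and a part of blood cells in the results was not tested. Of 4 tested endothelial markers KDR fell, at -1.20 ± 0.22, while PECAM1, VWF and TEK did not pass, at means of 115, 6.97 and 8.17.

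The direction of the response varied with expression level and with the kind of gene. Of tested genes with a mean from 50 to 200, 25.0% rose and 9.76% fell, and of those with a mean of 5000 or more 5.06% rose and 37.6% fell, with a median of -0.26. Among genes with a mean of at least 50, 34.5% of 464 lincRNA genes rose and 8.19% fell, against 15.9% and 20.1% of 11487 protein-coding genes. The lincRNA median was 0.27 and the protein-coding median -0.08. Processed pseudogenes, copies of mostly abundant mRNAs whose reads cannot be separated from those of their parents with certainty, had a median of -0.50 over 99 genes. By genomic span, protein-coding genes had medians from -0.17 for genes under 5000 bases to -0.03 for those from 5000 to 20000 bases. These are descriptions over genes, which are not replicates.

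The last comparison asks whether the response depended on the hairpin. It sets the difference between shE4F1 and shCTRL cells under gemcitabine against the same difference in untreated cells; the deposited tables of these share no sample. Of 20926 genes 1137, or 5.43%, differed at an adjusted p under 0.05, with 587 more positive in shE4F1 cells and 550 more negative (two-sided normal test, Benjamini-Hochberg). The shCTRL samples of the response above enter this test too, so its values are given beside the response and not as a second support. The ATF4 and CHOP list differed most: 26 of 33 members were more positive in shE4F1 cells and none more negative. ASNS changed by -0.87 ± 0.22 in shCTRL cells and its response was higher by 1.82 ± 0.25 in shE4F1 cells (adjusted p = 6.72e-10). For CHAC1 the difference was 2.88 ± 0.45 and for TRIB3 2.50 ± 0.28. Of 20 aminoacyl-tRNA synthetases 9 were more positive, GARS by 1.14 ± 0.21. In the NF-kB list 8 of 25 members were more negative and none more positive, with differences of -2.70 ± 0.23 for TNFAIP3 and -2.53 ± 0.43 for TRAF1. Added to the shCTRL response, these leave 1.38 and 3.78 in shE4F1 cells. No deposited table compares shE4F1_GEM with shE4F1_NT, and moderation towards 0 may differ between the tables combined, so such sums are approximate. For 7 of 33 homologous recombination genes the response was more positive in shE4F1 cells, XRCC3 by 0.75 ± 0.22. None of the 22 MHC and checkpoint ligand genes and none of the 21 glycolytic genes differed past the threshold. A call needed a difference of several SE: IL18R1 narrowly passed at 0.59 with an SE of 0.196. The median SE of a difference over all genes was 0.296, so differences well above that size could be missed.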

How the data were processed

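The 12 SUM159 samples gave stranded libraries of polyadenylated RNA and single-end reads, 50 bases long, per the labels. Per the submitters' processing notes, the authors' statistics used R 3.4.0 and DESeq2 1.14.1, their alignment and counting HTSeq 0.9.0, TopHat2 2.1.1 and Bowtie2 2.2.9, on build GRCh38.p7. Annotation release, strand setting, filters and model formula were not given in the sources used here. Per the file headers, each deposited table gives a mean normalized count, a signal over 6 samples, with the log2 change of the authors, its standard error, the Wald statistic, a score, and the p-value raw and adjusted. Changes are therefore the authors', and no test was refitted on reads.

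From these values the implied group means were computed, 2 × mean / (1 + 2 to the power of the change) for untreated samples, along with counts and medians per gene list. The difference between hairpins was tested with summed variances and Benjamini-Hochberg adjustment in Python (scripts were tested on simulated data). Gene positions and types come from GENCODE 29, which matched 22017 of 22154 identifiers. Promoters come from RefSeq, GRCh38.p14, and were matched by gene identifier to 12696 genes. Named genes are the 15 largest called changes each way with a mean of at least 50 and members of the gene lists; some list members enter the counts but are not reported by name here. The members and the gene lists were chosen with earlier results of these data known, and the list of alternatives was extended by 1 centring after the values were seen. The count table, whose 12 sample columns could not be matched to the labels, was not used here, so depth per sample and its precision are unknown.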

Additional observations from a re-analysis of the deposited data

Results flagged for a closer look

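The response of 106 of the 323 named genes with a test differed between shE4F1 and shCTRL cells. Many of them were named for a large change in the same shCTRL samples, so this share cannot be set against that over all genes. Each value is the response in shE4F1 cells minus that in shCTRL cells on the log2 scale, from the authors' deposited tables, at an adjusted p under 0.05 (two-sided normal test, Benjamini-Hochberg). The shCTRL samples enter both the response and this difference, so a sign opposite to the response is no independent result.

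Among the largest rises the difference was negative for INHBA at -3.97, ARL14 at -3.68, TRIML2 at -3.40, PTPRR at -2.99, TNFAIP3 at -2.70, C8orf46 at -2.68, CFAP58 at -2.59, TRAF1 at -2.53, CXCL8 at -2.37, IL1B at -2.30, CXCL1 at -2.06 and IL6 at -1.16. Among the largest falls it was positive for HIST1H2AC at 2.64, RP11-442H21.2 at 2.60, DDIT4 at 2.54, GLDN at 1.98, TSC22D3 at 1.91, HIST3H2A at 1.75, COL8A1 at 1.37, AC093616.4 at 1.36, ACKR1 at 1.27 and FAM65B at 1.04.

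In the NF-kB and inflammatory lists the differences were TNIP3 -1.30, REL -1.15, IKBKE -1.12, NFKB2 -0.73, MAP3K14 -0.73, CSF2 -2.61, DDX58 -1.04, IFIH1 -0.83 and IL7R -2.96, while the receptor genes IL1RL1 at 0.85 and IL18R1 at 0.59 were positive. Growth factor and immediate early genes gave EGR2 -1.99, EGR1 -1.98, FOS -1.91, JUN -0.76, KLF6 -0.87, JDP2 0.93, DUSP10 -1.10, ETV5 1.12, HBEGF -1.55, ERRFI1 0.88, BMP2 -1.73 and SMAD3 -0.84. Matrix and YAP target genes gave COL3A1 -3.48, LAMB3 -1.01, ITGB8 -1.63, LAMB1 0.75, ITGA3 0.70, ADAMTS1 -2.69, ANKRD1 -2.44, NUAK2 -1.79 and SNAI2 -1.17.

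In the cell cycle, repair and death lists the differences were CCNE1 -0.92, CDKN1A -0.92, E2F1 0.59, E2F5 0.64, MYBL2 0.57, PLK1 0.71, HIST1H2BD 1.89, EXO1 0.73, FANCE 1.02, XRCC3 0.75, NT5E 0.67, BTG2 -1.15, PLK2 -1.12, PMAIP1 1.26 and BCL2L1 0.56. In the stress lists they were CHAC1 2.88, TRIB3 2.50, ASNS 1.82, SESN2 1.81, PSAT1 1.78, PHGDH 1.11, SLC7A11 1.09, ATF4 1.05, SLC38A2 0.70, HERPUD1 1.45, EIF2AK3 -0.67, KLF9 0.94, ZBTB16 0.94, FOXO1 0.66, SGK1 -0.94, HMOX1 0.81, OSGIN1 -1.06, FTH1 0.64, TXNRD1 0.58, ADM -2.62 and BNIP3L 0.73. Metabolic and translation genes gave GARS 1.14, IARS 0.91, EPRS 0.73, NCL 0.58, NPM1 0.53, COX5A 0.75 and MT-ND4 0.60. Outside the lists the differences were PSG5 -1.74, PSG4 -1.25, ZNF75D 0.95, HNRNPA1 0.58, HNRNPDL 0.77, SRSF1 0.58, EIF4A2 0.75, EEF1A1 0.54 and SNHG3 0.90. Except for E2F1, MYBL2, EXO1, XRCC3 and PMAIP1, these differences had the opposite sign to the response in shCTRL cells. The shCTRL responses of PHGDH and SGK1 did not pass the test.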

How the results depend on the processing

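No paired analysis was possible because the deposited comparison tables carry no sample values and the columns of the count table could not be matched to the labels. For the same reason the edgeR fits, the other count scalings, the replicate block and leaving out each replicate were not run. Taken from 2 other deposited tables, the response gave 3040 changed genes, 1504 higher and 1536 lower. These tables compare shE4F1_GEM with each shCTRL group, so their difference reuses the same 6 shCTRL samples and is no independent check. Summed variances widen the errors there. With a mean of at least 50 the changes of at least 1 were 967 in all and 701 higher, since fewer genes are tested. Centring on the most abundant genes, an alternative chosen after seeing the data, gave 5338 genes higher and 1032 lower, of which 2182 and 163 moved by at least 1, and 33 lists with more members higher than lower against 10 with more lower. At an adjusted p threshold of 0.01 the response of 601 genes differed between hairpins, 294 more positive and 307 more negative. The other counts over all genes stayed within 1.5 times. Of 331 named genes, 253 of them called, 20 lost a call with that centring, 23 with the indirect tables, 16 at a threshold of 0.01, 6 on centring at a mean of 50 and 2 when every gene with a p-value was adjusted. The calls lost with that centring were those of TGFBR2, SMAD4, MMP2, CYR61, ORC2, DBF4, AURKA, CDC20, CTPS1, GART, IMPDH2, NT5C2, MUS81, WEE1, XRCC6, LDHA, GAPDH, MT-ND6, AXL and ERBB2. A further 23 named genes gained a call with it, so their lack of a call above depends on the scaling. They included IKBKG, IL18, CSF1, B2M, TGFB2, MCM6, RPA3, PCNA, AURKB, TPX2, TTK and DCK. Others were SLC29A1, FANCD2, FANCI, ATR, MDM2, BAX, SGK1, TXNIP, CD14, VWF and ELF3. Centring at a mean of 50 added 5 calls, and testing only genes with a mean of at least 50 added 3. Changes of sign were limited to genes not called. On centring on the most abundant genes these were NFKBIA at 0.067, IL7 at 0.13, IFI6 at 0.15, MAVS at 0.029, HLA-C at 0.076, SPRY2 at 0.21, FN1 at 0.12, SPARC at 0.22, E2F3 at 0.19, E2F4 at 0.20, RPA1 at 0.0039, RRM2B at 0.24, ATM at 0.035, ZMAT3 at 0.026, NR3C1 at 0.19, MT-ND1 at 0.12, MT-RNR2 at 0.16, CD44 at 0.12, CDH2 at 0.24, KRT8 at 0.046, KRT18 at 0.12, KRT5 at 0.22 and FCER1G at 0.10. On centring at a mean of 50 they were SPRY2 at 0.0083, SPARC at 0.021, RRM2B at 0.036, CDH2 at 0.038 and KRT5 at 0.022, and from the indirect tables EGFR at -0.022, LAMA3 at -0.0042, CASP8 at -0.019 and ESR1 at -0.0069. Depth limits the low genes, where the median SE of 0.435 hides changes that would be called at higher levels.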

Other observations

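Several families outside the gene lists moved together; they were chosen after their values were seen, so their counts are descriptions. Of 456 protein-coding zinc finger genes named ZNF, most of them of the KRAB repressor class, 168 rose and 22 fell, at a median deposited change of 0.32, against 14.5% rises and 13.5% falls over all tested genes. ZNF93, ZNF684 and ZNF396 had the largest rises, at 1.81 ± 0.26, 1.56 ± 0.24 and 1.55 ± 0.24, and ZNF75D the largest fall, at -1.26 ± 0.17. All 10 pregnancy-specific glycoprotein genes rose, at a median of 1.73, with PSG5 at 2.65 ± 0.22 and PSG4 at 1.82 ± 0.20. These genes are close copies in a cluster on chromosome 19, so reads may be shared between them. Of 5 guanylate-binding protein genes, targets of interferon and NF-kB, 4 rose, GBP5 by 2.56 ± 0.29 and GBP4 by 2.04 ± 0.26.

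Many genes of RNA-binding families fell. Of 20 hnRNP genes, packaging and splicing factors of nascent RNA, 13 fell and none rose, at a median of -0.51, with HNRNPA1 at -1.27 ± 0.15 and HNRNPDL at -1.29 ± 0.15. Of 12 SRSF splicing factor genes 7 fell and none rose, with SRSF1 at -0.91 ± 0.13. Of 47 translation initiation and elongation factor genes 18 fell and 2 rose, leaving out kinases, inhibitors and gene copies of similar name, with EIF4A2 at -1.36 ± 0.13 and EEF1A1, which brings aminoacyl-tRNA to the ribosome, at -0.83 ± 0.14. Of 25 genes that host small nucleolar RNAs and related noncoding genes 10 fell and 1 rose, with SNHG3 at -1.33 ± 0.18. The box C/D small nucleolar RNAs themselves fell in 8 of 27 cases and none rose, although only 3 had a mean of at least 50. Falls made up 65%, 58.3%, 38.3%, 40% and 29.6% of these 5 families, in the order given. Over all tested genes 13.5% fell, and of those with a mean of 5000 or more 37.6%. The share of the translation factors was thus near that of abundant genes. These families include abundant genes, whose changes depend on the scaling in the way given with the counts over all genes.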
